A study of Mus musculus with 10 samples.

Results

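Of 10 libraries of mouse fetal ovarian soma, 3 stood apart by a high level of Fos, the inducible partner in the transcription factor AP-1. Those 3 were compared here with the other 7 over all genes. The 3 were chosen by 1 value, the rlog of Fos, with the line drawn between 10.88 and 11.70, where rlog is the authors' regularised logarithm of gene counts on a log2 scale. They are supplied embryo 4 (Fos at 12.58), withdrawn embryo 2 (11.70) and withdrawn embryo 3 (12.50). Nearest to the line from below lay supplied embryo 5, at 10.88, so the gap across it was 0.82, and the lowest library was withdrawn embryo 5, at 9.81. Fos itself chose the sides and is left out of every count of genes between them; it returns only as the predictor within the 7 other libraries and in the closing list of single libraries that stood apart.

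The libraries were made from gonads of female Gulo-/- embryos (C57BL/6) collected on embryonic day 13.5. The labels do not say whether a library holds 1 embryo or a pool; each is called an embryo below. Gulo encodes the oxidase that completes vitamin C synthesis, and all 10 embryos lacked it, so vitamin C came from the maternal diet. It had been supplied in 5 embryos and withdrawn over the first weeks of gestation in the other 5, and the high-Fos libraries hold 1 of the supplied and 2 of the withdrawn. The RNA was that of the cells left when Oct4-expressing germ cells had been sorted away. Withdrawn embryos 2 and 3 carry the same leading digit in their titles; the labels do not say whether that marks litter mates or cells handled together.

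Immediate early genes are switched on within minutes of a stimulus without any need for new protein. Growth factor and stress signals reach them through MAP kinases, the serum response factor and cAMP-responsive factors, and their messengers are short-lived. Many encode transcription factors (the AP-1, EGR, KLF and NR4A families), and others encode brakes such as the phosphatase Dusp1 and the RNA-decay factor Zfp36. The same genes, with chaperones of the heat shock response, are known to be induced while tissue is taken apart into single cells, a step that comes before sorting.

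The promoters of called genes are shown first, because many of the called immediate early genes hold short elements there. Each run below is the stretch of 150 bases that ends just before the RefSeq start site (build GRCm38.p6, which is not the mm9 of the expression table), 5′ to 3′ on the strand of the gene. Capitals mark the cAMP-response core TGACG on either strand, the EGR element GCGNGGGCG on either strand or, in Hspa1a alone, the heat shock element GAANNTTC.
Fos, chr12:85473740-85473889, plus strand: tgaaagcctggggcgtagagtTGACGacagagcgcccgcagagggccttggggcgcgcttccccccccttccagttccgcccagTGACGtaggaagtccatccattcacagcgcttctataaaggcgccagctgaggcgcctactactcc
Junb, chr8:84978749-84978898, minus strand: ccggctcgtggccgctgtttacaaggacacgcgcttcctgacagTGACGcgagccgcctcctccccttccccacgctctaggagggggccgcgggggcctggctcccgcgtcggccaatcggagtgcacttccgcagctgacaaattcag
Nr4a1, chr15:101266696-101266845, plus strand: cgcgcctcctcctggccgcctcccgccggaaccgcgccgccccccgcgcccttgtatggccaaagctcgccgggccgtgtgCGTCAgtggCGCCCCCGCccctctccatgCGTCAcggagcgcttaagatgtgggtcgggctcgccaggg
Cyr61, chr3:145649986-145650135, minus strand: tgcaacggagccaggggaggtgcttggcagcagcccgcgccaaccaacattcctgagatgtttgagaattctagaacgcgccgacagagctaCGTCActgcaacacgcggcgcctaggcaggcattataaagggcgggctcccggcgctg
Hspa1a, chr17:34972157-34972306, minus strand: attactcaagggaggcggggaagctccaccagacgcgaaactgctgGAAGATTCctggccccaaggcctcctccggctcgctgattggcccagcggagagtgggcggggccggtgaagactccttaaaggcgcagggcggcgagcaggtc

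In the 3 high-Fos libraries 42 genes were higher and 1 was lower than in the other 7, out of 13577. The genes were led by AP-1 subunits, EGR factors, the NR4A gene Nr4a1 and the matrix protein gene Cyr61. Of the 42, 22 belong to a list of immediate early genes. Each gene was fitted with limma with the vitamin C group as a covariate, and is called where its p, adjusted over all genes, is under 0.05. The share called was 0.309% of genes on the higher and 0.00737% on the lower side. At an unadjusted limma p under 0.05, 814 of the 13577 genes were higher and 627 lower. Those 2 counts are the background for the list counts at that threshold below, many of which are small. All 3 high-Fos libraries lay above all 7 others in 280 genes (2.06%) and below them in 198 (1.46%), and in 36 of the 42 called higher. Differences are high-Fos minus the rest on the rlog scale, which shrinks weakly expressed genes most, with the standard error (SE) of the fit. The sides came from values of the same libraries, so an adjusted p sets a gene's difference against the spread within the sides and tests no treatment. Nothing in the labels says which embryos share a litter, so the libraries may not be independent and the SE may be too small. The spread within the sides may also be partly technical.

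Fosb and Egr1, named with Fos as markers of the 3 libraries when these were picked out, were high in each of the 3. No p is given for them here, but both are among the 42 genes and in the list counts below, which for these 2 are no independent result. Fosb, a second FOS-family subunit, was at 11.49 in supplied embryo 4, 10.45 in withdrawn embryo 2 and 11.60 in withdrawn embryo 3. In the other 7 libraries Fosb ran from 8.58 through a median of 9.44 to 9.82, so the sides did not overlap, and the difference was 1.92 (SE 0.20), or 3.78-fold on the rlog scale. Egr1, a zinc finger factor of the serum response, was at 13.95, 13.16 and 14.08 in the same order, against 11.57 to 12.63 (median 12.02), a difference of 1.75 (SE 0.17). In both genes withdrawn embryo 2 was the lowest of the 3, as it was for Fos, and supplied embryo 5 was the highest of the 7.

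**Figure D1:**
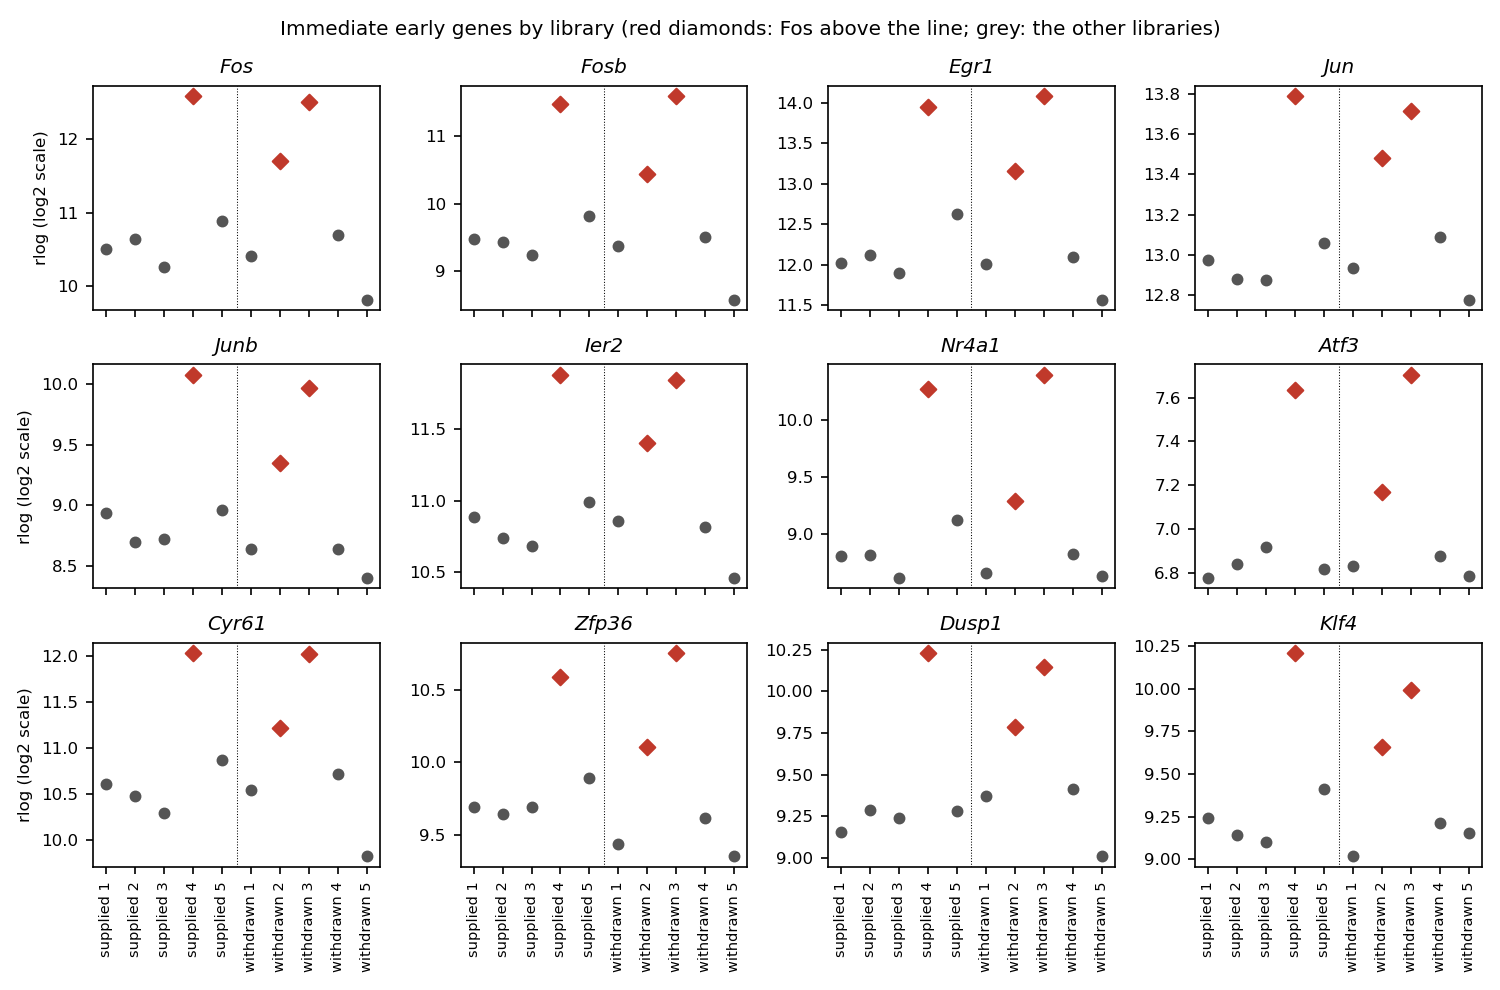
Level (rlog, log2 scale) of 12 immediate early genes in each of the 10 libraries, supplied embryos left and withdrawn embryos right of the dotted line, 1 point a library and each panel with its own axis. Red diamonds are the 3 high-Fos libraries. They lie above the 7 grey points in each panel, with withdrawn embryo 2 the lowest of the 3. In the Fos panel the choice of the libraries fixes that separation. Fosb and Egr1 were markers of the same choice, and the remaining genes are drawn from those called.

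Among the AP-1 subunits, 6 of the 12 measured beside Fos were higher (50% against 0.309% of all genes), and the median difference was 0.16 against -0.0013 over all genes. Junb, which pairs with FOS proteins, was at 10.08, 9.34 and 9.96 in supplied embryo 4 and withdrawn embryos 2 and 3, and between 8.40 and 8.96 (median 8.70) in the rest. All 3 values lay above the 7, and the difference of 1.16 (SE 0.10) had a limma adjusted p of 1.79e-05. Jun, the main partner of Fos, was at 13.79, 13.48 and 13.72 against 12.78 to 13.09 (difference 0.74, limma adjusted p = 2.73e-05). Jund, the subunit regarded as least inducible, was higher by 0.41 and Atf3, a stress-induced repressor, by 0.68, and in both the 2 sides were separate. The small MAF protein gene Maff was higher by 0.22 (limma adjusted p = 0.0254). Fosl2 (0.11), Mafk (0.10), Mafg (0.05), Jdp2 (0.01) and Batf3 (0.01) were among those not called, and Fosl1, Batf and Batf2 have no row in the table.

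Over the whole list of immediate early genes, 22 of 55 measured members were higher, 40% against 0.309% of all genes, and 0 were lower. The median of the 55 was 0.20, 51 lay above 0 (49.1% of all genes did), and 27 had all 3 high-Fos libraries above the 7 others. The list and the 3 libraries were both chosen with results of these data known, so its direction is no independent evidence. Of the other EGR factors, Egr2 was at 8.0, 7.27 and 8.09 against 6.68 to 7.0, a difference of 0.99 (limma adjusted p = 0.000191), and Egr3 was higher by 0.70. Nr4a1, an orphan nuclear receptor, was at 10.27, 9.29 and 10.40 against 8.62 to 9.12 (median 8.81). Its 3 values were above all others, with a difference of 1.25 (SE 0.16, limma adjusted p = 0.00031), while its relatives Nr4a2 (0.15) and Nr4a3 (0.17) were not called. The Krüppel-like factor Klf4 was at 10.21, 9.66 and 9.99 against 9.02 to 9.41, a difference of 0.81. Klf2 was higher by 0.36, but there withdrawn embryo 2 (8.64) lay under supplied embryo 2 (8.72), and Klf6 (0.27) was not called. Ier2, a small nuclear protein gene, was at 11.88, 11.40 and 11.84 against 10.46 to 10.99, a difference of 0.97. Arc, best known from activated neurons, was at 7.89, 7.20 and 7.77 against 6.76 to 6.93, a difference of 0.78.

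Among the brakes on the response, a few genes were higher and most were not called. Dusp1, the phosphatase that switches off stress-activated MAP kinases, was at 10.23, 9.78 and 10.14 against 9.01 to 9.42 (median 9.28), a difference of 0.82 (SE 0.09, limma adjusted p = 7.29e-05). Dusp5, which acts on ERK in the nucleus, was higher by 0.42. These were the 2 called of 25 genes of MAP kinase feedback, where 22 lay above 0 and the median was 0.07. The sprouty genes Spry1 (0.12), Spry2 (0.11) and Spry4 (0.13) and the ERK phosphatase Dusp6 (0.10) were not called. Zfp36, whose protein leads AU-rich messengers to decay, was at 10.59, 10.10 and 10.76 against 9.35 to 9.89, a difference of 0.92. Btg2, a recruiter of the deadenylase complex, differed by 1.01 with 1 crossing: withdrawn embryo 2 (10.08) was below supplied embryo 5 (10.13). Of the 19 measured genes of RNA decay those 2 were called, and the subunits of the decay machinery itself, such as Cnot1 (-0.03) and Xrn1 (0.08), were not. Socs3, the feedback inhibitor of cytokine receptors, was higher by 0.46 (limma adjusted p = 0.0117).

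Cyr61, now named Ccn1, an immediate early gene that encodes a secreted matrix protein, was at 12.03, 11.21 and 12.02 against 9.82 to 10.87 (median 10.54). The sides were separate, and the difference of 1.34 (SE 0.17, limma adjusted p = 0.000383) was the third largest after Fosb and Egr1. It was the 1 called among 16 targets of YAP and TEAD, whose median was 0.11 with 13 above 0. The sister gene Ctgf was at 0.20 and Amotl2 at 0.18, neither called. Among 23 genes of actin and serum response factor targets 0 were called by limma and 3 had an unadjusted p under 0.05 on the higher side. They were Srf itself (0.26, limma adjusted p = 0.0656), the myosin kinase gene Mylk (0.30, limma adjusted p = 0.0987) and Fhl2 (0.12). In the list of CREB targets, Fosb, Nr4a1 and Dusp1 were the 3 called of 20.

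**Figure D2:**
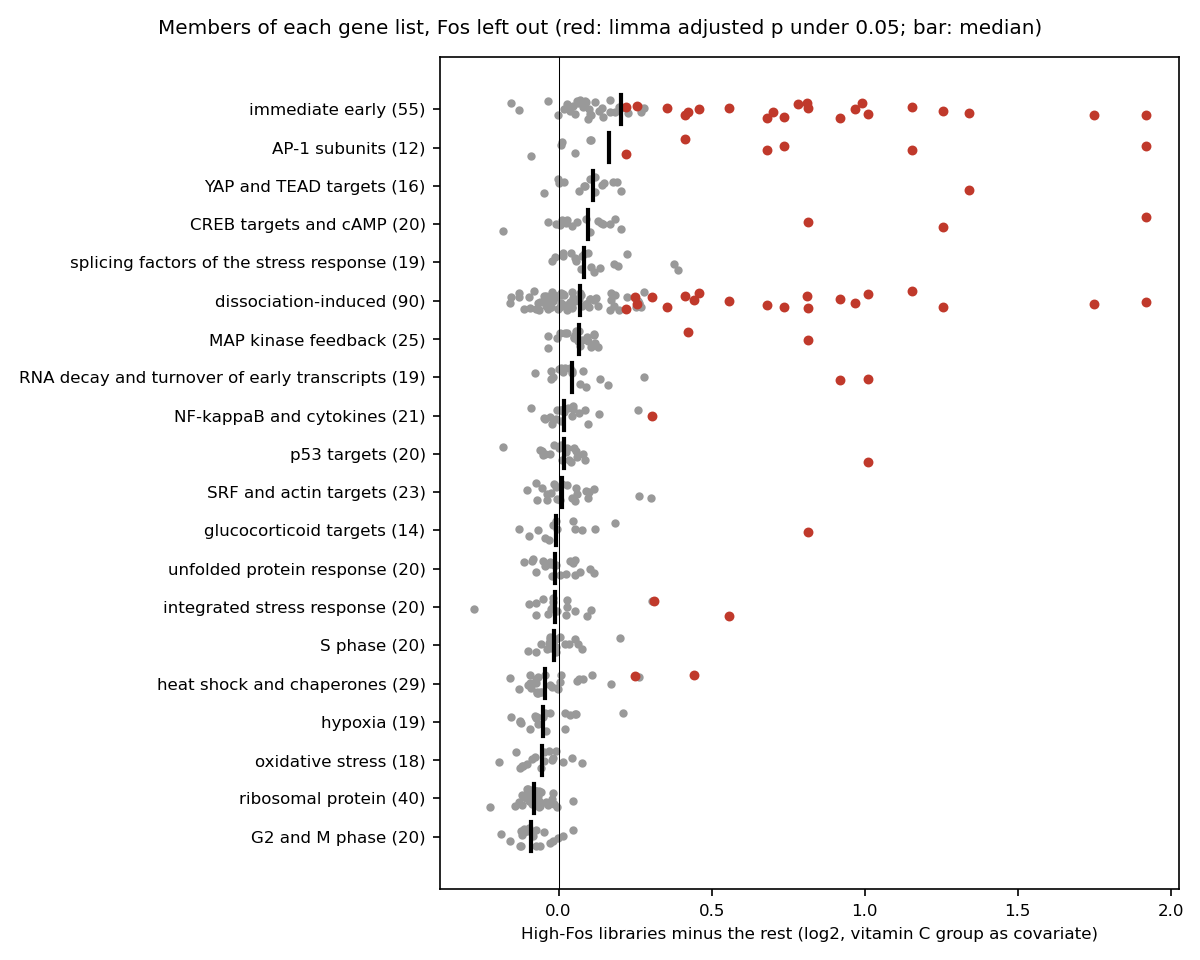
Difference between the 3 high-Fos libraries and the other 7 (log2, vitamin C group as covariate) for each member of 20 gene lists, with the number measured beside Fos in brackets; red points are called by limma and the black bar is the median. The immediate early list holds 22 called members and the heat shock list 2 (Dnajb1 and Hspa1a). Ribosomal protein genes sit below 0 in 39 of 40, with 0 called.

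Of 29 measured chaperone genes 2 were called higher (6.9%), 10 lay above 0, and the median was -0.04. Dnajb1, the HSP40 co-chaperone of the heat shock response, was at 10.87 in supplied embryo 4, 10.55 in withdrawn embryo 2 and 10.76 in withdrawn embryo 3, against 10.11 to 10.37 (median 10.34). The sides did not overlap, and the difference was 0.44 (SE 0.06, limma adjusted p = 0.000674). Hspa1a, an inducible HSP70 gene whose heat shock element is printed above, was at 6.93, 6.73 and 6.85 against 6.51 to 6.68, a difference of 0.25 (limma adjusted p = 0.0455). Its near-identical copy Hspa1b, with which reads can be shared, was at 0.26 and not called (limma adjusted p = 0.0519). Neither copy's value is certain for that reason. Dnajb4 was at 0.17. In these 4 genes all 3 high-Fos libraries lay above the 7. The cytosolic HSP90 genes Hsp90aa1 (-0.07) and Hsp90ab1 (-0.16), the constitutive HSP70 gene Hspa8 (-0.07), Hspb1 (-0.09) and Bag3 (-0.09) were on the lower side.

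Of a wider list of genes known to be induced by tissue dissociation, 20 of 90 were higher (22.2%). Of those 20, 17 also belong to the immediate early list. Outside that list 3 of 58 were called, Dnajb1, Hspa1a and Nfkbiz, with 33 of the 58 above 0 and a median of 0.01. The metallothionein genes Mt1 (-0.02) and Mt2 (-0.01), and Odc1 (-0.04), members of the dissociation list, were close to 0. Nfkbiz, an atypical inhibitor of NF-kappaB, was at 8.29, 8.15 and 8.38 against 7.88 to 8.14, a difference of 0.31 (limma adjusted p = 0.0340). It was the 1 called of 21 measured genes of NF-kappaB and cytokines, and Nfkbia (0.05) and Tnfaip3 (0.01) were not. Another 11 of that list, among them Il6, Cxcl1, Ccl2, Tnf and Ptgs2, have no row in the table.

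Other stress programmes showed single genes. Ppp1r15a, which encodes GADD34 and reverses the translation block of the integrated stress response, was at 10.62, 10.07 and 10.47 against 9.74 to 9.94, a difference of 0.56 (limma adjusted p = 0.00134). Atf4, the transcription factor of that response, was at 12.15, 11.99 and 12.02 against 11.64 to 11.86, a difference of 0.31 (limma adjusted p = 0.0131). In both genes the sides were separate. They were the 2 called of 20 measured members; the ATF4 target Asns, asparagine synthetase, was at -0.28 (limma adjusted p = 0.171), Ddit3 at -0.02 and Trib3 at -0.07, and the median was -0.01. Of the p53 targets Btg2 was the 1 called of 20. By limma 0 members were called of the unfolded protein response (20 measured, median -0.01), the oxidative stress list (18, median -0.05) and the hypoxia list (19, median -0.05). At an unadjusted p under 0.05 these lists had 1, 4 and 5 members, the 1 being Xbp1 (0.11). The 4 of the oxidative stress list, Prdx1 (-0.20) and Txnrd1 (-0.12) among them, were all on the lower side, and in the hypoxia list 4 were lower and Vegfa (0.21) was higher. Of the glucocorticoid targets Dusp1 was the 1 called of 14, with Fkbp5 at -0.07 and Tsc22d3 at -0.05.

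Outside the immediate early list 20 genes were called higher. Osr2, a zinc finger factor of embryonic mesenchyme, was at 10.54, 10.52 and 10.41 against 9.90 to 10.25, a difference of 0.42 (limma adjusted p = 0.00986). Ptch1 and Gli1, targets and parts of hedgehog signalling, were higher by 0.37 (limma adjusted p = 0.0303) and 0.42 (limma adjusted p = 0.0365). Gli1 was at 11.01, 10.92 and 11.12 against 10.32 to 10.84, and Ptch1 at 11.59, 11.44 and 11.37 against 10.90 to 11.25, with no overlap in either. The hedgehog genes Hhip (0.16), Gli2 (0.16), Gli3 (0.05) and Smo (0.02), chosen after their values were seen, were not called. Fzd1, a WNT receptor, was higher by 0.32, the relaxin-family receptor gene Rxfp2 by 0.41 and the matrix genes Col7a1 and Lama2 by 0.39 and 0.24. The potassium channel gene Kcnd3 (0.39), the calcium channel gene Cacna1c (0.30), the glutamate receptor gene Grm7 (0.31) and the neurotrophin receptor gene Ntrk3 (0.25) were higher as well. Mir17hg, the host of a microRNA cluster, was higher by 0.49, but withdrawn embryo 2 (8.57) lay below supplied embryo 5 (8.71). Prdm1 (0.40), Rhbdf1 (0.26), Chn2 (0.24) and Synpo (0.26) complete the 20 with Dnajb1, Atf4, Nfkbiz and Hspa1a. Ptch1, Gli1 and Prdm1 also stand in the stromal and germ cell marker lists described below.

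**Figure D3:**
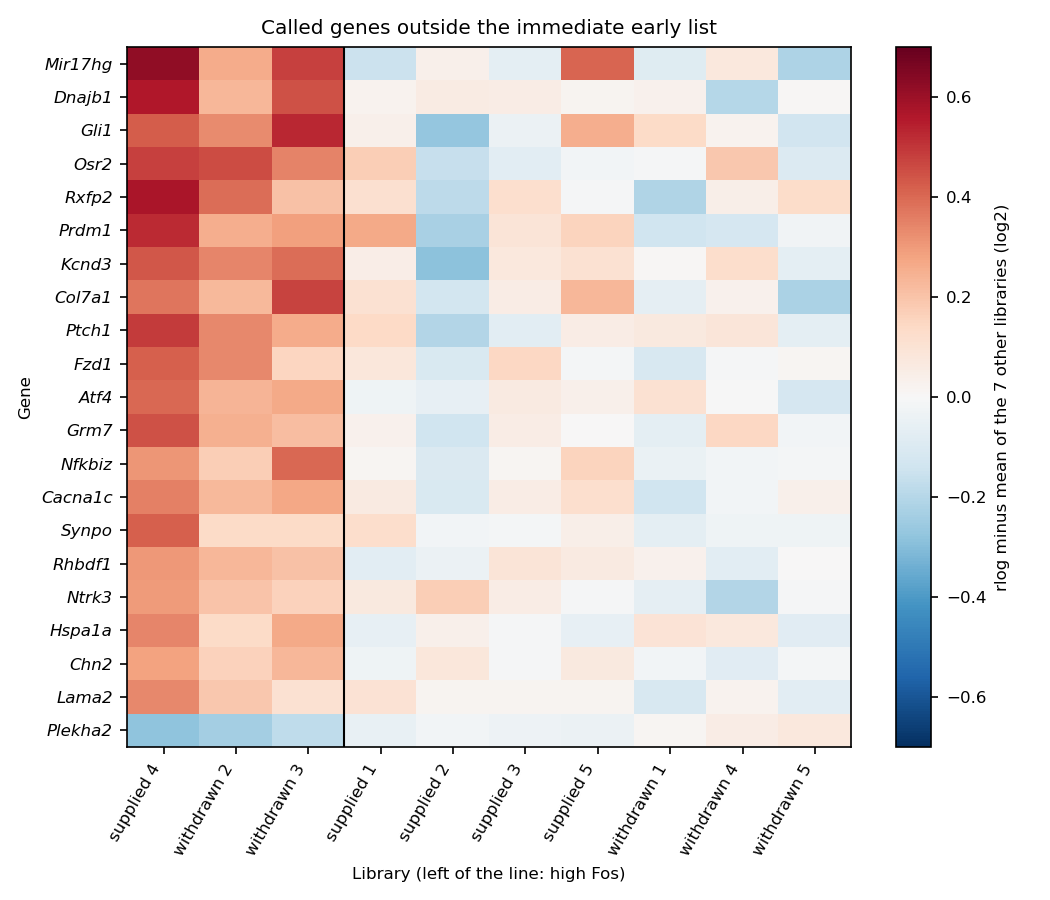
The 21 called genes outside the immediate early list (rows) in the 10 libraries (columns), coloured by rlog minus the mean of the 7 other libraries (log2), with the 3 high-Fos libraries left of the line. Supplied embryo 4 is above the mean of the 7 in every row but that of Plekha2, where the 3 libraries are at 9.99, 10.03 and 10.09 against 10.22 to 10.35.

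On the lower side only Plekha2, which encodes an adaptor that binds a membrane phosphoinositide, was called (-0.25, SE 0.04, limma adjusted p = 0.0131). It was at 9.99, 10.03 and 10.09 in the 3 libraries and between 10.22 and 10.35 in the 7. The next by p were Prr13 (-0.31), the prostaglandin dehydrogenase gene Hpgd (-0.27), the membrane-cytoskeleton linker gene Ezr (-0.22), Eci2 (-0.21) and Pld3 (-0.23), with limma adjusted p between 0.0596 and 0.0852. Ribosomal protein genes were lower in 39 of 40, with 0 called by limma, 3 at an unadjusted p under 0.05 on the lower side and a median of -0.08. Over all genes 49.1% lay above 0. The mean of the ribosomal list did not separate the sides, at 12.85 to 12.88 in the high-Fos libraries, inside the 12.79 to 13.10 of the rest. Genes of the G2 and M phases were lower in 18 of 20 (0 called, 5 at an unadjusted p under 0.05, median -0.09, Kif20a at -0.19), and S phase genes had a median of -0.01 (0 called, 1 at an unadjusted p under 0.05). The mean of the G2 and M list overlapped as well, at 10.82 to 10.89 against 10.82 to 11.05.

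The difference was also taken within supplied and within withdrawn embryos, which share no library. The 42 genes called higher had differences above 0 in both groups, which their joint call partly fixes and which is therefore a description. In Fosb the difference was 1.99 within the supplied and 1.87 within the withdrawn embryos, in Junb 1.25 and 1.10, in Nr4a1 1.43 and 1.14 and in Zfp36 0.86 and 0.96. Within the withdrawn embryos alone (2 against 3), limma called 15 genes higher (0.11% of genes), 14 of them immediate early genes, and 2 lower (0.0147%). In all 15 called higher, supplied embryo 4 was the highest of the 5 supplied embryos, which it was in 20.3% of all genes. The 15 were called on a split by Fos, and supplied embryo 4 was itself picked by its Fos. That count is therefore a description too and no independent result. Across all 13577 genes the 2 within-group differences had the same sign in 62.8% and correlated at r = 0.537, a description over genes that are not independent and share the libraries' composition; without the called genes r was 0.445. A test of whether the difference itself differed between the vitamin C groups (interaction, limma) called 0 genes (0%), with 185 at an unadjusted p under 0.05 and 3 of these among the 42. With 1 high-Fos library among the supplied embryos, that count does not show that the groups act alike.

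**Figure D4:**
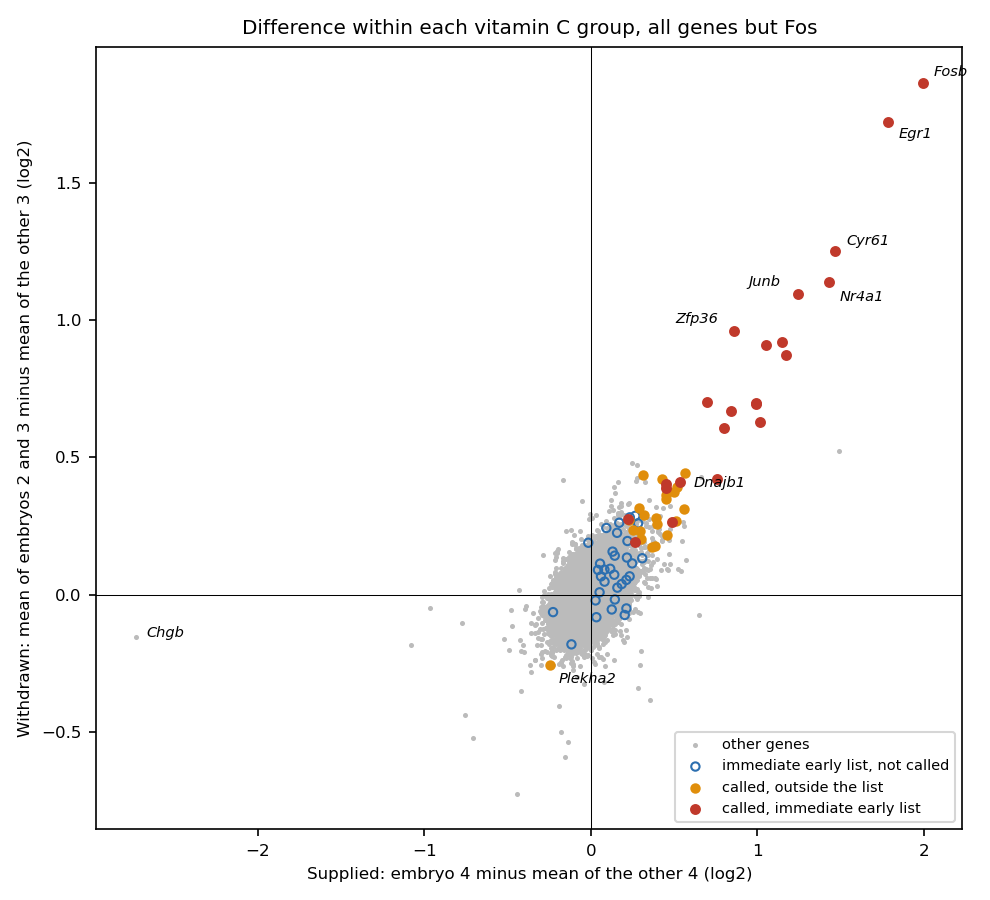
Each point is a gene (Fos left out): its difference within the supplied embryos (embryo 4 minus the mean of the other 4, x axis) against that within the withdrawn embryos (mean of embryos 2 and 3 minus the mean of the other 3, y axis), both log2. The called immediate early genes (red) run along the diagonal up to Fosb at 1.99 and 1.87, and Chgb, at -2.73 within the supplied embryos, is high in supplied embryos 2 and 3.

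The 3 libraries were not alike in degree. Withdrawn embryo 2 was the lowest of the 3 in all 22 called immediate early genes and in 33 of all 42 called higher, and in 34.6% of all genes. Supplied embryo 5 was the highest of the 7 others in 13 of the 22, and withdrawn embryo 5 the lowest in 14. Within the 7 others alone, with Fos as a continuous term and the vitamin C group kept, 20 of the 22 genes had a slope above 0 (50.7% of all genes did). Limma called 3 of them, Fosb (1.02 per unit of Fos), Cyr61 (0.97) and Egr1 (0.79), among 14 genes called in all (0.103%). Fosb and Egr1 were markers of the choice of libraries, and the 22 were called on the Fos split in data that include these 7. Their slopes are therefore a description and no independent result. The 11 others of the 14 had slopes below 0 and were led by the neutrophil granule genes Ltf (-1.84) and Ngp (-1.63). Ltf was highest in supplied embryo 3 (9.34), withdrawn embryo 5 (8.55) and supplied embryo 1 (8.50), and lowest of the 7 in withdrawn embryo 4 (7.31).

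Foxl2, the defining factor of pregranulosa cells, was at 9.44 to 9.52 in the high-Fos libraries and 9.27 to 9.75 in the rest, so the labelled female gonadal soma was present on both sides. Markers of other cells moved with the split in part. All 11 measured macrophage and leukocyte markers were lower in the high-Fos libraries (0 called by limma, 2 at an unadjusted p under 0.05, median -0.075), and their summed linear level was 2225 to 2257 there and 2166 to 2765 in the rest. All 5 measured neutrophil markers were lower too (0 called, 3 at an unadjusted p under 0.05, median -0.57), with sums of 608.1 to 773.8 against 676.8 to 2002. With the macrophage list mean as a covariate 20 genes were called higher, 17 of them immediate early genes. The 12 stromal markers were higher in 11 (median 0.11), 2 of them called, Ptch1 and Gli1, with sums of 215144 to 234430 against 176618 to 212946. Endothelial markers were above 0 in 13 of 15 (0 called, 3 at an unadjusted p under 0.05, sums of 9980 to 11394 against 9382 to 11012). Erythroid markers were below 0 in 9 of 11 (0 called, 2 at an unadjusted p under 0.05, sums of 30729 to 45047 against 26250 to 69322), and neural markers in 8 of 9 (0 called, 1 at an unadjusted p under 0.05, sums of 2555 to 2776 against 2420 to 10006). Germ cell markers had 5 of 15 members in the table, and Pou5f1, Ddx4 and Dazl have no row; their sums were 1197 to 1454 against 1118 to 1422, with Prdm1 called. Mesonephric (median 0.0011), pregranulosa (-0.02), steroidogenic (-0.0046) and mesothelial (-0.0072) markers had 0 called members by limma, and 1, 1, 0 and 0 at an unadjusted p under 0.05. Their sums were 10976 to 11964 against 11631 to 12847, 18959 to 20753 against 18524 to 22540, 272.4 to 304.3 against 268.4 to 325.9, and 62002 to 71450 against 54235 to 65601. In bulk RNA, fewer cells of a type and less RNA per cell cannot be told apart, and the part of these cells in the called genes was not tested.

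Levels of some nuclear and ribosomal RNAs were higher in the high-Fos libraries, with overlap between the sides. The nuclear RNA Malat1 was at 17.8 in supplied embryo 4, 17.4 in withdrawn embryo 2 and 18.05 in withdrawn embryo 3, and its highest value, 18.13, was in supplied embryo 5 of the other side (difference 0.39, limma adjusted p = 0.419). Neat1 was at 8.84, 8.52 and 8.99, and at 8.94 in supplied embryo 5 (difference 0.38). The ribosomal RNA precursor Rn45s was at 21.2, 20.8 and 21.2, and at 21.1 there (difference 0.31). Neither was called by limma. In Malat1, Neat1 and Rn45s withdrawn embryo 2 was the lowest high-Fos library and supplied embryo 5 the highest of the others, as for Fos. Of 19 genes of splicing and nuclear RNA, 17 were above 0, with 0 called by limma and 8 at an unadjusted p under 0.05 on the higher side (Srsf7 0.18, Srsf6 0.14). Malat1 and Neat1 are themselves members of this list. The difference rose with the genomic span of a gene, from a median of -0.02 in the shortest of 10 equal classes (median span 2.905 kb) to 0.02 in the longest (226 kb), Spearman rho 0.145 across 13401 genes with a position, a description with no test. The 22 called immediate early genes were short, with a median span of 4.31 kb against 25.2 kb over all genes. The 20 others called had a median span of 47.4 kb, and 6 of the 20 were in the longest class. The part of nuclear RNA in the called genes was not tested.

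**Figure D5:**
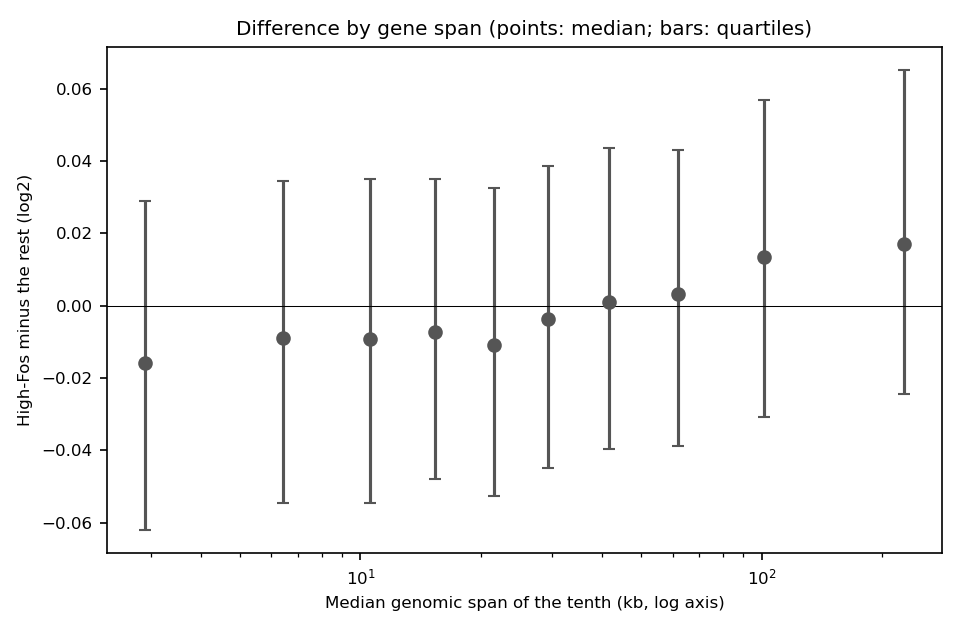
Difference between the 3 high-Fos libraries and the 7 others (log2) for 10 equal classes of genes by genomic span, plotted at each class's median span (kb, log axis), points at the median and bars from the lower to the upper quartile. Medians go from -0.02 in the shortest to 0.02 in the longest class.

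Of the promoters printed above, those of Junb, Nr4a1 and Cyr61 belong to a set with frequent short elements. Hspa1a is among the called genes outside the list, and Fos is left out of both sets. Every promoter printed holds a marked element, while a called gene such as Jund held none of those searched. RefSeq windows were matched for 18 of the 22 called immediate early genes and for 10639 of the 13577 genes, and the 250 bases before each start site were searched on both strands. The core TGACG was found in 13 of the 18 (72.2%) against 29.9% of all matched genes, and the full cAMP-response element TGACGTCA, which contains it, in 4 (22.2%, in Dusp1, Btg2, Ppp1r15a and Maff) against 2.99%. The EGR element GCGNGGGCG was found in 8 (44.4%) against 10.9%, and the CArG box of the serum response factor in 3 (16.7%, in Zfp36, Egr2 and Dusp5) against 1.44%. The AP-1 element TGANTCA was in 0 of the 18 and in 5.1% of all genes, and the heat shock element in 1 of the 18 (Jun) and in 6.04%. Of the 14 matched called genes outside the list, 5 held TGACG (35.7%) and 0 TGACGTCA. The EGR element, the CArG box and the AP-1 element were each in 1 (7.14%, in Cacna1c, Lama2 and Prdm1). The heat shock element was in 4 (28.6%, in Prdm1, Chn2, Hspa1a and Lama2), of which only Hspa1a is a chaperone gene. Dnajb1, 1 of the 5 with TGACG, held no heat shock element in its windows. The median GC content of the windows was 65% in the 18, 59.2% in the 14 and 60% over all genes, which alone changes how often GC-rich letters occur. A gene counts where any of its windows holds the letters, and the mean number of windows was 1.33 in the 18 genes, 1.5 in the 14 and 1.28 over all genes. These shares describe letters and say nothing of binding.

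The number called moved with single libraries. Without supplied embryo 4, 14 genes were called higher, all 14 in the immediate early list, and without supplied embryo 5 the number was 105. The same 14 were called whichever of the 10 libraries was left out: Junb, Egr1, Jun, Ier2, Klf4, Fosb, Dusp1, Zfp36, Jund, Arc, Atf3, Egr2, Nr4a1 and Cyr61. Of the 20 called genes outside the list 0 were called in all 10 of those fits. Dnajb1 lost its call only without supplied embryo 4 (0.39, limma adjusted p = 0.0940), and Ppp1r15a likewise (0.42, limma adjusted p = 0.235). Atf4 did so too (0.26, limma adjusted p = 0.715), and Osr2 without supplied embryo 4 (0.37) or withdrawn embryo 2 (0.41, limma adjusted p = 0.516 and 0.0508). Plekha2 was not called without either of those libraries (-0.26 and -0.23, limma adjusted p = 0.328 and 0.0743). In Osr2 and Plekha2 the differences were thus close to those with all 10 libraries, 0.42 and -0.25. Reads of a called gene and an overlapping gene on the other strand cannot be told apart where strand was not counted; of such partners in the table Prdx2 (Junb) was at -0.11, Tulp2 (Ppp1r15a) at -0.16, Ergic1 (Dusp1) at 0.07, 1700095B22Rik (Kcnd3) at 0.07, Dcp1b (Cacna1c) at 0.03 and Arhgap9 (Gli1) at 0.02.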

How the data were processed

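RNA of sorted Oct4-negative gonadal cells of 10 embryos was sequenced with a low-input total RNA kit, per the labels' protocols. The authors deposited 1 table of rlog values, on a log2 scale, for 13578 genes (sample medians 9.12 to 9.14). DESeq2 1.20.1, TopHat2 2.1.1, Trim Galore 0.4.0 and mm9 are named in the submitters' processing notes, and no source here states whether counting used strand. Such values keep no depth, hence neither counting intervals nor a count test. Libraries were split by Fos. Each gene was fitted with limma 3.58.1 (R 4.3.3) on the side and the vitamin C group, with a variance trend and Benjamini-Hochberg adjustment over all genes at 0.05; a mean minimum of 3 removed 0 genes. The fit was tested on simulated data. The members, the 31 gene lists and the rules were chosen with earlier results of these data known.

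Named genes were the 12 largest called differences in each direction (all where fewer were called), the 6 of smallest p in a direction with fewer than 5 calls, and the 3 members of smallest p in a list; other genes named were chosen after their values were seen. Gene spans came from GENCODE M21 and promoters from RefSeq, both GRCm38, used for no coordinates of the expression table. Other settings tried were covariates, scaling, filters, variance models, sample weights, averaging, 1 vitamin C group at a time and leaving out each library. Added after seeing the data were leaving out supplied embryos 2 and 3 (highest Chgb), the 7 low libraries alone and a ribosomal protein covariate.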

Additional observations from a re-analysis of the deposited data

Results flagged for a closer look

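Within a vitamin C group of 5 libraries, a gene is given here where its highest or lowest library lay farther from the next than 0.71 of the group's whole range (Dixon's criterion). Of 230 such groups 31 met it, Fos included, and 26 of the 31 were at supplied embryo 4, the single high-Fos library of its group. Chance meets the criterion in about 1 group in 20, but that rate does not apply, since most of these genes were named for their difference on the Fos split. Its immediate early genes stood above the other 4 supplied embryos: Fos at 12.58, Fosb at 11.49, Jun at 13.79, Junb at 10.08, Jund at 12.76, Atf3 at 7.63, Egr2 at 8.0, Egr3 at 7.59, Ier2 at 11.88, Klf4 at 10.21, Arc at 7.89, Dusp1 at 10.23, Zfp36 at 10.59, Ppp1r15a at 10.62 and Btg1 at 11.92. Dnajb1 at 10.87, Hspa1a at 6.93, Atf4 at 12.15, Lama2 at 10.26 and the endothelial receptor gene Tek at 8.25 were high there as well. The same library was the lowest of the supplied for Plekha2 at 9.99, Eci2 at 9.62, Ezr at 10.89, the mitotic cyclin gene Ccnb1 at 10.33, Emx2 at 12.21 and Kitl at 12.43. Elsewhere withdrawn embryo 1 was low for Errfi1 at 9.38 and Tek at 7.78, withdrawn embryo 2 was high for Igfbp5 at 16.05, withdrawn embryo 5 was high for the neutrophil gene Ltf at 8.55, and supplied embryo 2 was high for Trp53inp1 at 10.32.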

How the results depend on the processing

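Against 42 genes higher and 1 lower, leaving out each library gave 14 to 105 higher and 0 to 19 lower. The lowest count came without supplied embryo 4 and the highest without supplied embryo 5. The number higher was 165 with sample weights, 79 with Fos as a continuous term, 27 with embryos of the same title number averaged, 24 with no variance trend, 20 with the macrophage covariate, 20 in supplied and 15 in withdrawn embryos alone, 19 with the ribosomal protein covariate and 3 in the 7 low libraries. The number lower was 46 with sample weights, 11 with Fos continuous, 11 in the 7 low libraries, 3 with no vitamin C covariate, 3 with robust variances, 2 in withdrawn embryos alone, and 0 with averaging or the macrophage covariate. The cause was not tested. The replicate block gave 72 higher (32 of the 42 among them) and 23 lower; the samples share only a number, since deviations of same-numbered samples correlated between -0.36 and 0.17, and 1 of 5 correlated best with its own number. In the 7 low libraries the slope on Fos was reversed, with limma adjusted p of 0.998, for Prdm1 (-0.10), Rhbdf1 (-0.054), Maff (-0.047), Fzd1 (-0.14), Rxfp2 (-0.21), Cacna1c (-0.049), Ppp1r15a (-0.040), Ntrk3 (-0.16) and Dnajb1 (-0.14). Counted over pairs of a list and a setting, the list median moved in 30 and did not in 776. Over pairs of a single gene and a setting, a call was lost in 357 and gained in 61. These are counts of pairs and not of genes. The interaction stayed at 0 calls in 3 alternatives. Depth is unknown, and 3 libraries on the smaller side limit precision.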
